A study of Rattus norvegicus with 30 samples.

Results

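The mitochondrial solute carriers were taken as every probe set on the array with a single gene symbol that starts with Slc25, except Slc25a20, together with Ucp2 and Ucp3. There were 60 such probe sets of 31042, for 41 genes of the 14217 that the array names. Of these, 51 probe sets for 37 genes were bright enough to be tested. The other 9 probe sets were too dim, and Slc25a18, Slc25a21, Slc25a31 and Slc25a34 had no other. Slc25a47 had no probe set under its own symbol and was not analysed here, nor were 2 probe sets that carry a double entry for Slc25a51.

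Cryopreserved hepatocytes of male Sprague Dawley rats were bought, thawed and plated, and on day 3 of culture were given diisononyl phthalate (DINP), a plasticiser, or its vehicle. The 6 groups were vehicle (1% DMSO), DINP at 25 mM and DINP at 100 mM, each harvested at 24 h and at 48 h, with doses and their unit as the labels write them. All dosing solutions were made in 1% DMSO. Each group had 5 culture wells, 1 array a well. The sources do not state how many rats gave the cells. The spread between wells, on which every p-value rests, may therefore hold no difference between animals. RNA levels were read as signal on an Affymetrix rat array, a fluorescence value without a unit, and levels below are either this signal or log2(signal + 16).

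SLC25 proteins are transporters of the inner mitochondrial membrane. They pass ADP and ATP, phosphate, di- and tricarboxylates, amino acids, nucleotides, cofactors and iron between the cytosol and the matrix. In liver they tie the urea cycle, gluconeogenesis, fatty acid synthesis and the reducing shuttles to enzymes on both sides of that membrane. The uncoupling proteins belong to the same family, and Slc25a17 lies in the peroxisome. DINP is known in rodent liver as a peroxisome proliferator that acts through the nuclear receptor PPARα, whose binding element is a repeat of AGGTCA-like letters with a single base between the copies.

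All 8 hepatocyte markers on the array were tested and none was below the dimmest level tested in any group. Their summed signal ranged from 510920 to 652120. None was called with DINP at 24 h. At 48 h, 2 were called higher with 25 mM (25%), where 9.78% of all genes were called higher and 21.9% in either direction. With 100 mM, 1 was called lower (12.5%), where 9.2% of all genes were called lower and 17.9% in either direction. With time in vehicle, 3 were called lower (37.5%, against 7.92% of all genes called lower and 17.4% called in either direction). The 8 Kupffer cell and macrophage markers on the array summed to between 3012 and 5556, the 9 of stellate cells and fibroblasts to between 3503 and 4850 and the 4 of endothelial cells to between 1158 and 2112. The 3 cholangiocyte markers summed to between 7749 and 14249, nearly all of it from Epcam, which fell at 48 h by 0.35 ± 0.07 on the log2 scale with 25 mM (limma, adjusted p = 0.000796) and by 0.22 ± 0.07 with 100 mM (0.0422) and rose by 0.47 ± 0.07 with time in vehicle (4.3e-05). Krt19, the other tested cholangiocyte marker, was not called in these comparisons. Its means were 8.25, 7.77 and 7.73 at 24 h in vehicle, 25 mM and 100 mM, near the dimmest level tested. At 48 h they were 8.31, 8.07 and 8.63, so with 100 mM it did not go the way of Epcam. Krt7, a further cholangiocyte marker, and both lymphocyte markers on the array were too dim to test. The part of these cell types in the results was not tested. One vehicle array at 48 h, replicate 1 (replicates are numbered in accession order), had the largest share of outlying probe sets, 2.63% against 0.859% to 1.82% on the other arrays. The 3′ to 5′ ratio of GAPDH, a measure of RNA integrity, was 1.09 to 1.16 on all 30 arrays. The ratio of beta-actin was 2.1 to 2.92. The signal of a 5S ribosomal RNA control was higher on every DINP array than on every vehicle array of its time, at 880 to 1320 in vehicle, 1580 to 3080 with 25 mM and 1840 to 2950 with 100 mM at 24 h, and at 736 to 992, 1530 to 2050 and 1060 to 1930 at 48 h. Its part in the results was not tested.

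The promoters of the 4 carrier genes called higher in all 4 comparisons with vehicle, Ucp2, Slc25a42, Slc25a10 and Slc25a39, are printed so that the motif counts can be read on them. Each is the 250 bases before the RefSeq gene start in the rat assembly GRCr8, 5′ to 3′ on the gene's strand, in which capitals mark CCAAT or AGGTCA on either strand. Ucp2 lies on the plus strand at chr1:164251123-164251372, Slc25a42 on the plus strand at chr16:19247724-19247973, Slc25a10 on the plus strand at chr10:106264146-106264395 and Slc25a39 on the minus strand at chr10:87866974-87867223.
Ucp2: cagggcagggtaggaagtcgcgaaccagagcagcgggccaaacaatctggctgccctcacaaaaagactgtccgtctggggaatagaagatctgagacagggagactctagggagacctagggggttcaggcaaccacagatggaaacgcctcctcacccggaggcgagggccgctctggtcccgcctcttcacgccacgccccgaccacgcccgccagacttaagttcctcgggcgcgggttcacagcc
Slc25a42: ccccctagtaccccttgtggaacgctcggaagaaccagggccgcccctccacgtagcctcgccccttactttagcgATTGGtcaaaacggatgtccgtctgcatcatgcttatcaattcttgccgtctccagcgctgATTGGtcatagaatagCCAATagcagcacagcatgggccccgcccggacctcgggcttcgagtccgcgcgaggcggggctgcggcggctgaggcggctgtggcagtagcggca
Slc25a10: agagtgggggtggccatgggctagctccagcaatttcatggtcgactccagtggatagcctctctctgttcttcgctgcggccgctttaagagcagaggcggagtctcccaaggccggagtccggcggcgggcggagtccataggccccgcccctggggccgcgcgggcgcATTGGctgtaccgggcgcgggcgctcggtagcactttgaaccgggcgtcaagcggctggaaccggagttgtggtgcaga
Slc25a39: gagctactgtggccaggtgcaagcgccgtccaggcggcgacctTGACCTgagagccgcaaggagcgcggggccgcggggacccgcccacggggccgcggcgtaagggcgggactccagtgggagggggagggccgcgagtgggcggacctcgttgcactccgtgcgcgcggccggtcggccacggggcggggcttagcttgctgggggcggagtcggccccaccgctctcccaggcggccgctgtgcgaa

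RefSeq gave a promoter for 31 of the 37 tested carrier genes. The exact repeat, AGGTCA, any 1 base and AGGTCA again, on either strand, was in 0 of the 31 and in 0.0508% of all 33469 promoters of that length. At so low a rate 0 of 31 could hardly have come out otherwise. It says nothing about looser, AGGTCA-like elements, which were not searched for. The single AGGTCA, which the exact repeat contains, was in 5 of 31 (16.1%, against 14.1% of all promoters): Slc25a16, Slc25a27, Slc25a39, Slc25a41 and Ucp3. CCAAT was in 17 of 31 (54.8%, against 34% of all), with 3 matches in Slc25a42, 1 in Slc25a10 and 0 in Ucp2 and Slc25a39. A match describes letters in this window only.

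In the plot of vehicle levels, most carriers lay well above the dimmest mean level tested, 7.956 on the log2 scale, which is a signal of 232. Ucp2 lay below it in the vehicle at 24 h. Among the other tested genes, the mean of Slc25a53 was below it in the 100 mM group at 24 h and that of Slc25a35 in the 25 mM group at 48 h. The second probe set of Slc25a27 was below it in 3 of 6 groups. Signals of different probe sets are not comparable with each other, so no carrier is ranked against another by level.

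**Figure D1:**
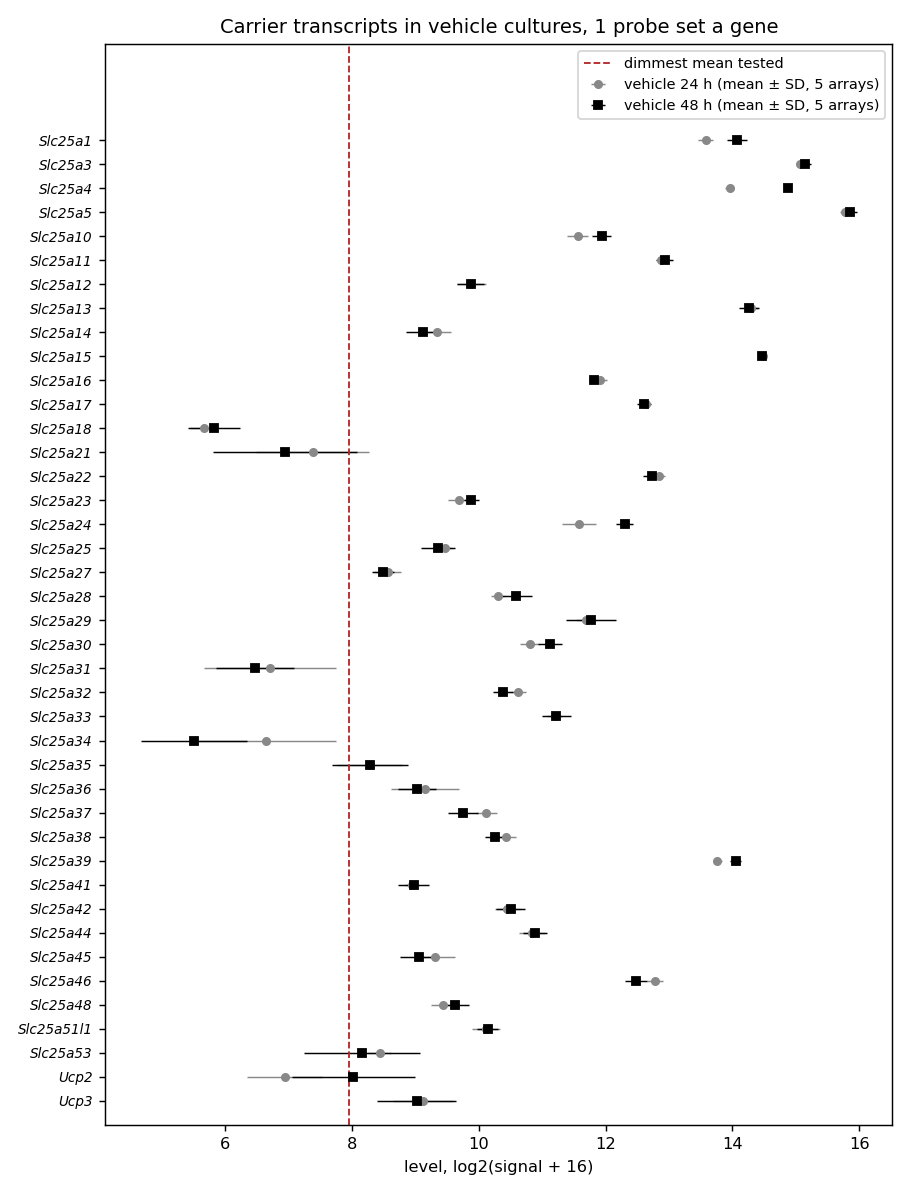
Mean level on the log2(signal + 16) scale with SD over 5 arrays in the vehicle groups at 24 h (grey) and 48 h (black), 1 probe set for each of the 41 carrier genes; the dashed line is the dimmest mean level tested, 7.956. Slc25a18, Slc25a21, Slc25a31 and Slc25a34 lie below the line at both times, and Ucp2 lies below it at 24 h and near it at 48 h.

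DINP raised some carriers and, on the deposited scaling, lowered about as many. At 24 h, 25 mM DINP raised 6 of the 37 tested carrier genes and lowered 5, which is 29.7% of them, where 15.7% of all 10604 tested genes were called, 7.87% higher and 7.84% lower. At 100 mM and 24 h, 5 rose and 5 fell (27%), against 14.6% of all genes, 7.54% higher and 7.02% lower. At 48 h, 8 rose and 7 fell with 25 mM (40.5%), against 21.9% of all genes, 9.78% higher and 12.1% lower. With 100 mM, 6 rose and 5 fell (29.7%), against 17.9%, 8.69% higher and 9.2% lower. The median difference of the carriers was -0.02, 0.04, 0.02 and 0.02 on the log2 scale in these 4 comparisons, beside -0.02, -0.03, -0.03 and -0.06 for all genes. A call is an adjusted p under 0.05 in limma's moderated test with Benjamini-Hochberg adjustment over the whole array. When each array was centred on its median in place of the deposited scaling, the splits of higher to lower carriers were 7 to 4 and 5 to 3 at 24 h and 8 to 5 and 8 to 3 at 48 h. The same centring moved the share of all called probe sets that were higher from 43.9%, 45.1%, 41.4% and 44.6% to 65.2%, 70.8%, 40.6% and 75.1%. Signal is a level per unit of RNA, so fewer cells of a type and less RNA per cell cannot be told apart.

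Across the 4 comparisons, 4 carriers were called higher in every one (10.8%, against 4.74% of all tested genes) and 5 lower in every one, Slc25a29, Slc25a33, Slc25a24, Slc25a15 and Slc25a16 (13.5%, against 3.53%). A further 7 were called in some of them, which makes 16 called at least once (43.2%, against 30.8% of all tested genes), and 21 in none. No carrier was called in both directions. Of the 4 called higher in every comparison, Ucp2 passed the brightness filter mainly through its level in the DINP groups. Doses at one time share their vehicle arrays, so the pair of comparisons at each time is not independent.

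**Figure D2:**
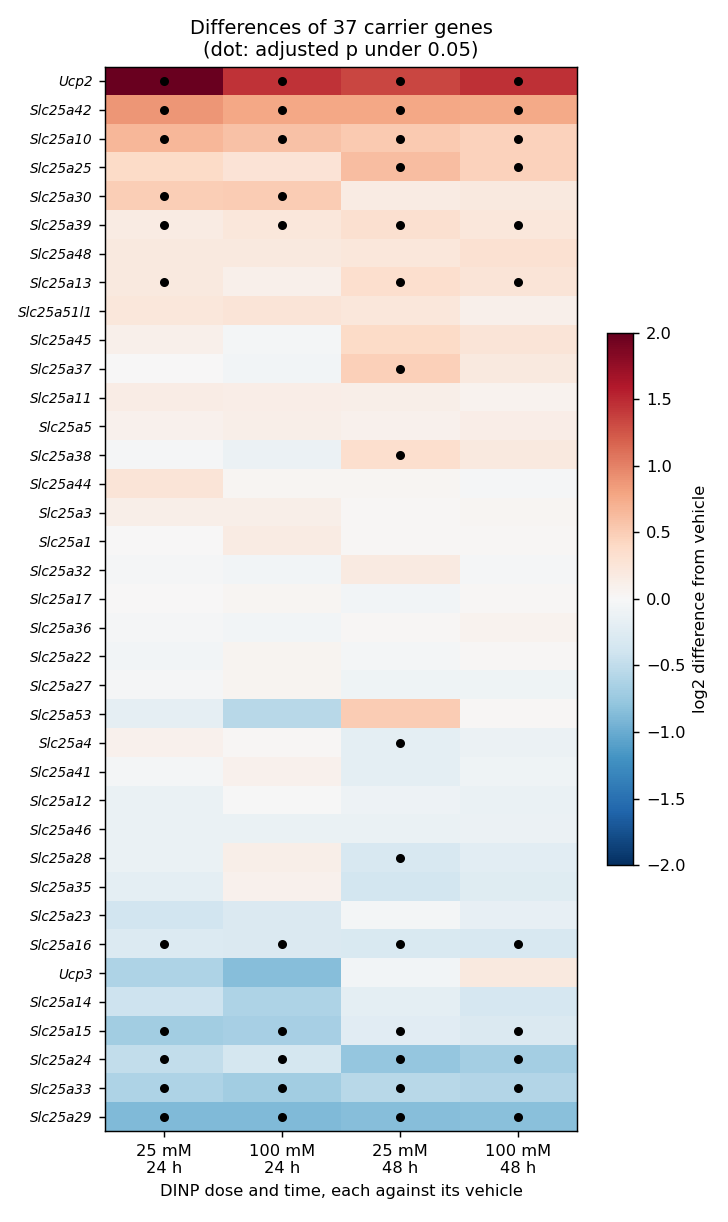
Log2 difference from the vehicle of the same time for 37 carrier genes (rows) in the 4 dose and time groups (columns); red is higher, blue is lower, and a dot marks an adjusted p under 0.05. Ucp2, Slc25a42, Slc25a10 and Slc25a39 carry a dot and are red in all 4 columns, and Slc25a29, Slc25a33, Slc25a24, Slc25a15 and Slc25a16 carry a dot and are blue in all 4.

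Of the 7 tested carriers of adenine nucleotides and phosphate, the members that exchange ADP for ATP or import phosphate had differences of at most 0.19 in size, while Slc25a24 and Slc25a25, calcium-regulated ATP-Mg/phosphate carriers, moved further and in opposite directions. 1 of the 7 was called at each dose at 24 h, and 3 and 2 at 48 h. These are 14.3%, 14.3%, 42.9% and 28.6%, against 15.7%, 14.6%, 21.9% and 17.9% of all genes. Slc25a24 gave vehicle signals of 3518, 3903, 2580, 2823 and 2604 at 24 h. With 25 mM they were 1735, 2125, 2321, 2123 and 2513, and with 100 mM 1927, 2320, 2199, 2830 and 2802. All 25 mM arrays were below all vehicle arrays, while the 100 mM arrays overlapped the vehicle. The 48 h vehicle arrays gave 5472, 4590, 4529, 5306 and 5259, those with 25 mM 3186, 3040, 2626, 2856 and 3039, and those with 100 mM 3123, 2963, 3633, 2901 and 3078. Both doses were below every vehicle array at that time. Slc25a24 fell by 0.50 ± 0.11 (SE, n = 5 against 5) on the log2 scale with 25 mM at 24 h (adjusted p = 0.00182), by 0.77 ± 0.11 with 25 mM at 48 h (4.08e-06) and by 0.68 ± 0.11 with 100 mM at 48 h (3.57e-05).

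The fall of Slc25a24 with 100 mM at 24 h, by 0.35 ± 0.11 (adjusted p = 0.0376), was the least firm of these. Its call was lost in 9 of 17 alternative settings, over which the difference ran from -0.41 to -0.26 and the adjusted p from 0.0201 to 0.206. Leaving out single arrays ended it for vehicle replicate 1 (-0.294, 0.113) or 2 (-0.257, 0.148) and for 100 mM replicate 1 (-0.269, 0.127), 2 (-0.335, 0.0704) or 3 (-0.316, 0.0958).

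Slc25a25 moved the other way at 48 h. Its vehicle signals there were 708, 707, 622, 463 and 741, against 1052, 1119, 1091, 826 and 896 with 25 mM and 959, 546, 1081, 1000 and 972 with 100 mM. Every 25 mM array was above the vehicle, and a single 100 mM array, replicate 2, lay among the vehicle arrays. It rose by 0.62 ± 0.15 with 25 mM (adjusted p = 0.00335) and by 0.46 ± 0.15 with 100 mM (0.0345). At 24 h the vehicle arrays gave 724, 769, 664, 689 and 623, the 25 mM arrays 877, 838, 1181, 783 and 895 and the 100 mM arrays 843, 733, 938, 950 and 742. The 25 mM arrays were all higher than the vehicle here too, but the differences of 0.38 ± 0.15 (adjusted p = 0.0973) and 0.27 ± 0.15 (0.283) were not called. Quantile normalisation or median centring brought the 25 mM difference at 24 h past the threshold (0.453, adjusted p = 0.0378; 0.454, 0.0489), in a range of 0.0378 to 0.273 over its 17 alternatives.

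The 100 mM call of Slc25a25 at 48 h was lost in 8 of 17 alternatives (differences 0.35 to 0.64, adjusted p 0.00107 to 0.132). The single arrays whose removal ended it were 100 mM replicates 1 (0.437, 0.0751), 3 (0.394, 0.101), 4 (0.422, 0.0901) and 5 (0.432, 0.0744) and vehicle replicates 3 (0.454, 0.0655) and 4 (0.351, 0.132).

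Slc25a4, an ADP/ATP carrier, had a larger difference between times in culture than between DINP and vehicle. Its signals at 24 h were 16685, 14965, 15599, 15678 and 16773 in vehicle, 15698, 16160, 16102, 18214 and 18097 with 25 mM and 14530, 14676, 18807, 16500 and 17361 with 100 mM. At 48 h they were 29953, 28464, 29815, 31842 and 29661 in vehicle, 25887, 26341, 24927, 28591 and 25835 with 25 mM and 25542, 28663, 27346, 27223 and 28768 with 100 mM. All arrays at 48 h were above all arrays at 24 h. In vehicle it rose by 0.91 ± 0.06 from 24 h to 48 h (adjusted p = 1.28e-12), a factor of 1.88. With 25 mM at 48 h it fell by 0.19 ± 0.06 (0.0266), and with 100 mM the difference was -0.12 ± 0.06 (0.183). Differences at 24 h were 0.08 ± 0.06 and 0.03 ± 0.06.

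The 25 mM fall of Slc25a4 was lost under median centring (-0.187, adjusted p = 0.149) and without 25 mM replicate 1 (-0.181, 0.0538), 3 (-0.168, 0.0759) or 5 (-0.181, 0.0527) or vehicle replicate 4 (-0.165, 0.0804), in a range of 0.000522 to 0.149 over 17 alternatives. The 100 mM difference of Slc25a4 at 48 h passed the threshold under quantile normalisation (-0.221, adjusted p = 0.00397; range 0.00397 to 0.939).

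The other members here were not called with DINP. Slc25a5, the second ADP/ATP carrier and a close paralog of Slc25a4 (whether either probe set also reads the other transcript was not tested), had group means of 15.78 ± 0.08 (SD, n = 5), 15.88 ± 0.09 and 15.90 ± 0.04 at 24 h and 15.86 ± 0.10, 15.95 ± 0.05 and 15.99 ± 0.05 at 48 h, in the order vehicle, 25 mM, 100 mM. Its differences were 0.09 to 0.13, and the largest, with 100 mM at 48 h (adjusted p = 0.0706), was called under median centring (0.233, 0.0399) and without vehicle replicate 1 (0.156, 0.0292) or 5 (0.152, 0.0408), with -0.01 to 0.23 over its 17 alternatives (adjusted p 0.0292 to 0.915). Slc25a3, which imports phosphate, had means of 15.07 ± 0.04, 15.18 ± 0.07 and 15.18 ± 0.06 at 24 h and 15.14 ± 0.10, 15.16 ± 0.08 and 15.18 ± 0.07 at 48 h, with differences of 0.02 to 0.12. Slc25a23 and Slc25a41, further ATP-Mg/phosphate carriers, were called in no comparison with vehicle.

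Of the 6 tested carriers of coenzymes, vitamins and nucleotides, 3 were called in every comparison with vehicle, 1 higher and 2 lower. That is 50% in each comparison, against 14.6% to 21.9% of all genes. The one that rose was Slc25a42, which brings coenzyme A into the matrix. At 24 h its signals were 1570, 1226, 1178, 1365 and 1626 in vehicle, 2396, 2532, 2441, 3381 and 2248 with 25 mM and 2732, 2061, 2284, 2491 and 2409 with 100 mM. At 48 h they were 1784, 1247, 1597, 1358 and 1255 in vehicle, 2671, 2513, 2714, 2334 and 2085 with 25 mM and 2980, 2339, 2550, 2094 and 2236 with 100 mM. Every DINP array was above every vehicle array of its time. Slc25a42 rose by 0.89 ± 0.12 with 25 mM at 24 h (adjusted p = 1.03e-06), a factor of 1.85, and by 0.78 ± 0.12 with 100 mM (1.18e-05). At 48 h it rose by 0.77 ± 0.12 (9.63e-06) and 0.75 ± 0.12 (1.79e-05).

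Slc25a33, a pyrimidine nucleotide carrier, gave signals of 2465, 2415, 2238, 2079 and 2535 in vehicle at 24 h, 1562, 1550, 1316, 1425 and 1788 with 25 mM and 1625, 1320, 1318, 1297 and 1689 with 100 mM. At 48 h the values were 3105, 2120, 2397, 2248 and 2121 in vehicle, 1630, 1647, 1679, 1624 and 1481 with 25 mM and 1700, 1544, 1641, 1498 and 1523 with 100 mM. No DINP array reached any vehicle array of its time. It fell by 0.62 ± 0.10 and 0.69 ± 0.10 at 24 h (adjusted p = 1.94e-05 and 3.04e-06) and by 0.55 ± 0.10 and 0.58 ± 0.10 at 48 h (7.16e-05 and 4.36e-05).

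Slc25a16, a carrier linked to coenzyme A, fell by less, by 0.28 ± 0.07 and 0.29 ± 0.07 at 24 h (adjusted p = 0.00472 and 0.00339) and by 0.31 ± 0.07 and 0.32 ± 0.07 at 48 h (0.00126 and 0.001), each with 25 mM before 100 mM. Median centring ended its call with 25 mM at 24 h (-0.206, 0.0981), with 100 mM at 24 h (-0.211, 0.0937) and with 100 mM at 48 h (-0.221, 0.0669), and over the 17 alternatives of these results the lowest adjusted p were 0.00236, 0.00252 and 0.000613. Slc25a17, the peroxisomal member, had means of 12.64 ± 0.03 (SD), 12.65 ± 0.16 and 12.69 ± 0.18 at 24 h and 12.60 ± 0.11, 12.54 ± 0.06 and 12.61 ± 0.17 at 48 h in vehicle, 25 mM and 100 mM. Its differences from vehicle were -0.05 to 0.04, none called. The 95% interval of the difference with 25 mM at 48 h was -0.22 to 0.11. Slc25a36, a pyrimidine nucleotide carrier, was not called, nor was the brightest probe set of Slc25a32, a carrier of folate and FAD. The second probe set of Slc25a32 was called higher with 25 mM at 48 h (0.49), where the brightest differed by 0.18.

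Of the 4 tested di- and tricarboxylate carriers, 1 was called in each comparison (25%, against 14.6% to 21.9% of all genes), always Slc25a10. This carrier exchanges malate and succinate for phosphate. At 24 h its signals were 2725, 2953, 2695, 3041 and 3645 in vehicle, 4363, 4958, 4662, 5009 and 4771 with 25 mM and 4874, 4360, 4458, 4795 and 4169 with 100 mM. At 48 h they were 4671, 3645, 3708, 3867 and 3694 in vehicle, 5737, 5219, 5808, 5892 and 5506 with 25 mM and 4884, 5496, 5113, 5713 and 5616 with 100 mM. The groups did not overlap at either time, and the highest vehicle array at 48 h, replicate 1, stood apart from the other 4. Slc25a10 rose by 0.66 ± 0.08 and 0.59 ± 0.08 at 24 h (adjusted p = 4.71e-08 and 5.07e-07), and by 0.53 ± 0.08 and 0.46 ± 0.08 at 48 h (2.71e-06 and 3.53e-05). Its second probe set had differences of 0.23 to 0.33 and was not called.

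Slc25a1, the citrate carrier that supplies fatty acid synthesis, had means of 13.58 ± 0.12 (SD), 13.58 ± 0.18 and 13.75 ± 0.02 at 24 h and 14.07 ± 0.16, 14.08 ± 0.16 and 14.09 ± 0.12 at 48 h. Its differences from vehicle were 0.00 ± 0.08, 0.17 ± 0.08, 0.02 ± 0.08 and 0.02 ± 0.08 (SE), none called, the lowest adjusted p being 0.197. Slc25a11, the oxoglutarate/malate carrier, and Slc25a35 were not called.

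Of the 8 tested amino acid carriers, 2 fell in every comparison, where 3.53% of all tested genes were called lower in all 4. Slc25a15 exchanges ornithine for citrulline in the urea cycle. Its signals at 24 h were 23396, 21849, 23167, 23596 and 22730 in vehicle, 15190, 13830, 13879, 13590 and 14268 with 25 mM and 15512, 14756, 14208, 14186 and 14022 with 100 mM. At 48 h they were 21300, 21932, 22635, 23269 and 23550 in vehicle, 20856, 18577, 19740, 17815 and 18986 with 25 mM and 20609, 17063, 17995, 19257 and 17571 with 100 mM. The groups did not overlap at either time, and the DINP arrays were further from vehicle at 24 h. Slc25a15 fell by 0.70 ± 0.05 with 25 mM and by 0.66 ± 0.05 with 100 mM at 24 h (adjusted p = 1.68e-12 and 8.54e-12), and by 0.23 ± 0.05 and 0.29 ± 0.05 at 48 h (0.000967 and 8.5e-05). Median centring ended the call with 100 mM at 48 h (-0.183, 0.0565; range over 17 alternatives 2.39e-06 to 0.0565).

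The effect on Slc25a15 was smaller at 48 h than at 24 h. The difference between times was 0.46 ± 0.07 for 25 mM (adjusted p = 0.000943) and 0.37 ± 0.07 for 100 mM (0.0186). It was the single carrier gene of 37 whose effect was called as different between times at either dose, where 0.358% of all genes were called at 25 mM and 0.113% at 100 mM. The other 4 tested probe sets of Slc25a15 fell in all 4 comparisons and by more at 24 h, by 0.75 to 0.88 with 25 mM at 24 h against 0.32 to 0.47 at 48 h. Their differences between times were 0.28 to 0.56 at 25 mM, of which 0.56 ± 0.11 of one probe set was called (0.0081), and 0.27 to 0.43 at 100 mM, none called.

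Median centring ended all of these time calls of Slc25a15, at 0.390 (adjusted p = 0.1) and 0.486 (0.25) for 25 mM and 0.393 (0.183) for 100 mM. The 100 mM time call was also lost without 100 mM replicate 5 at 24 h (0.359, 0.0504), 100 mM replicate 1 (0.332, 0.0542) or 4 (0.356, 0.0506) at 48 h, or vehicle replicate 2 at 48 h (0.362, 0.0554). Over 27 alternatives its adjusted p ran from 0.011 to 0.183, and those of the 25 mM calls from 0.000585 to 0.1 and from 0.00243 to 0.25.

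**Figure D3:**
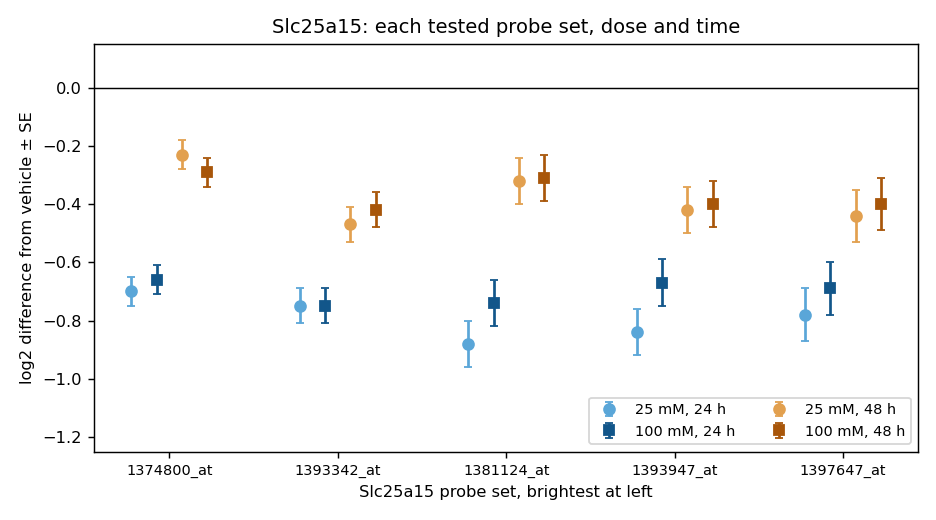
Log2 difference from vehicle with SE for the 5 tested probe sets of Slc25a15 (x axis, brightest at left), circles for 25 mM and squares for 100 mM, blue for 24 h and orange for 48 h. For every probe set the 48 h points lie nearer to 0 than the 24 h points, at -0.23 and -0.29 against -0.70 and -0.66 for the brightest.

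Slc25a29, a carrier of basic amino acids, had the largest falls of all carriers. Its vehicle signals were 3402, 3226, 2759, 3704 and 3376 at 24 h, against 1662, 1908, 2142, 1733 and 1417 with 25 mM and 1855, 1768, 1880, 1758 and 1595 with 100 mM. At 48 h they were 2260, 3830, 3312, 3766 and 4682 in vehicle, 2018, 2506, 2077, 1750 and 1422 with 25 mM and 1800, 2372, 1831, 2140 and 1593 with 100 mM. The groups did not overlap at 24 h, and at 48 h only vehicle replicate 1 lay within the range of the DINP arrays. Slc25a29 fell by 0.89 ± 0.15 and 0.88 ± 0.15 at 24 h (adjusted p = 2.94e-05 and 4.11e-05), factors of 1.86 and 1.85, and by 0.85 ± 0.15 and 0.84 ± 0.15 at 48 h (4.81e-05 and 6.56e-05).

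Slc25a13, citrin, which exchanges aspartate for glutamate and serves the malate-aspartate shuttle and the urea cycle, rose. Its means were 14.29 ± 0.11 (SD), 14.49 ± 0.06 and 14.40 ± 0.04 at 24 h and 14.26 ± 0.16, 14.60 ± 0.07 and 14.53 ± 0.05 at 48 h. The rise was 0.33 ± 0.06 with 25 mM at 48 h (adjusted p = 7.11e-05), 0.26 ± 0.06 with 100 mM at 48 h (0.00181) and 0.19 ± 0.06 with 25 mM at 24 h (0.0234), and 0.10 ± 0.06 with 100 mM at 24 h was not called (0.283). Quantile normalisation ended the call of Slc25a13 with 100 mM at 48 h (0.160, 0.0769; range 0.000619 to 0.0769) and with 25 mM at 24 h (0.120, 0.217; range 0.0128 to 0.217). The latter was also lost without vehicle replicate 1 (0.168, 0.0768), 2 (0.169, 0.0751) or 3 (0.184, 0.053) or 25 mM replicate 3 (0.170, 0.0755).

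Slc25a38, a glycine carrier needed for haem synthesis, rose by 0.33 ± 0.11 with 25 mM at 48 h (adjusted p = 0.0285) and was not called elsewhere. That call was lost in 5 of 17 alternatives (0.00711 to 0.0988), among them those without vehicle replicate 1 (0.299, 0.0624) or 3 (0.275, 0.0939) and without 25 mM replicate 2 (0.296, 0.0672) or 3 (0.273, 0.0988). Slc25a12, the aspartate/glutamate carrier of muscle and brain, Slc25a22, a glutamate carrier, Slc25a44, a branched-chain amino acid carrier, and Slc25a48 were called in no comparison with vehicle.

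In the uncoupling protein branch, Ucp2 and Slc25a30 rose and 3 of the 5 tested members were not called. Of all tested genes, 30.8% were called at least once. Ucp2 is an inner membrane carrier studied for its link to respiration and substrate export. At 24 h its signals were 66.9, 94, 149, 71.2 and 198 in vehicle, 582, 441, 253, 563 and 598 with 25 mM and 240, 96.4, 658, 352 and 552 with 100 mM. At 48 h they were 203, 550, 79.9, 379 and 235 in vehicle, 823, 751, 423, 725 and 563 with 25 mM and 536, 884, 719, 917 and 536 with 100 mM. All 5 vehicle arrays at 24 h were below the dimmest level tested, all 25 mM arrays at 24 h were above them, and the groups overlapped in the other 3 comparisons. Ucp2 rose by 1.97 ± 0.40 with 25 mM (adjusted p = 0.000591) and by 1.44 ± 0.40 with 100 mM (0.0145) at 24 h. At 48 h it rose by 1.34 ± 0.40 (0.0169) and 1.46 ± 0.40 (0.0104). Ucp2 passed the brightness filter, with a mean of 8.52 over all arrays, mainly through the groups in which it was high. Its DINP means were 8.91 and 8.38 at 24 h and 9.36 and 9.48 at 48 h, against 6.94 and 8.02 in vehicle.

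Because the 24 h vehicle level of Ucp2 is near background, its fold there has only a lower limit. Set against the dimmest level tested in place of the vehicle mean of 6.94, it was at least 1.94-fold higher with 25 mM and at least 1.34-fold higher with 100 mM. These limits compare means only and make no allowance for the spread between arrays. At 48 h, vehicle replicates 1 and 3, with signals of 203 and 79.9, also lay below that level, and no limit was worked out for that time. The call with 100 mM at 24 h was lost without 100 mM replicate 3 (1.180, adjusted p = 0.0653) or 5 (1.242, 0.0539) and when only these 2 groups were fitted (1.435, 0.0525), in a range of 0.000949 to 0.0653 over 17 alternatives. Without vehicle replicate 3 at 48 h the calls of Ucp2 at that time were lost with 25 mM (0.978, 0.0851; range 0.00474 to 0.0851) and with 100 mM (1.105, 0.0564; range 0.00292 to 0.0564).

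Ucp2 is also made by macrophages. Of the 6 tested Kupffer cell and macrophage markers, C1qb was called higher at 48 h, with means of 8.51 with 25 mM (adjusted p = 0.0158) and 8.66 with 100 mM (0.00473) against 7.72 in vehicle, which is below the dimmest level tested and makes the size of the difference uncertain. C1qc was called higher with 25 mM at 24 h, by 0.37 ± 0.12 (0.038). In each of these comparisons 1 of the 6 was called (16.7%), and 0 with 100 mM at 24 h. Of all genes, 15.7% were called with 25 mM at 24 h, 7.87% higher. At 48 h, 21.9% were called with 25 mM, 9.78% higher, and 17.9% with 100 mM, 8.69% higher. Csf1r, with group means of 8.72 to 8.97, and C1qa, with 9.17 to 9.80, were not called. Cd68, at -0.07, -0.30, 0.16 and 0.19 (SE 0.14), and Clec4f, at -0.52, -0.74, -0.10 and -0.00 (SE 0.43), were not called. The summed signal of the 8 markers was 4369 to 5131 in vehicle, 4025 to 5556 with 25 mM and 3782 to 4672 with 100 mM at 24 h, and 3012 to 4183, 3684 to 4297 and 3545 to 4497 at 48 h. Their part in the Ucp2 result was not tested.

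Slc25a30, a carrier close to the uncoupling proteins, had vehicle means of 10.80 ± 0.15 (SD) at 24 h and 11.13 ± 0.19 at 48 h, and means of 11.29 to 11.33 in the 4 DINP groups. It rose at 24 h by 0.49 ± 0.09 and 0.50 ± 0.09 (adjusted p = 0.000283 and 0.000236), with no overlap between arrays, and the differences at 48 h were 0.16 ± 0.09 (0.274) and 0.20 ± 0.09 (0.167). The change of its effect between times was not called at either dose, at -0.33 ± 0.13 (0.474) and -0.31 ± 0.13 (0.736).

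Ucp3, the uncoupling protein of muscle, varied widely between arrays of a group. Its means were 9.12 ± 0.47 (SD), 8.51 ± 0.96 and 8.27 ± 1.29 at 24 h and 9.02 ± 0.62, 8.97 ± 0.99 and 9.22 ± 0.40 at 48 h. The differences of -0.61, -0.85, -0.05 and 0.20, each ± 0.48 (SE), were not called, and the 95% interval with 100 mM at 24 h ran from -1.83 to 0.13. Slc25a14 and Slc25a27, further members of this branch, were not called.

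All 3 tested metal and glutathione carriers were called with 25 mM at 48 h, and 1 of them in each other comparison. Of all genes, 21.9% were called with 25 mM at 48 h, and 14.6% to 17.9% in the other comparisons with vehicle. Slc25a39, which brings glutathione into mitochondria, rose in all 4, by 0.17 ± 0.05 and 0.22 ± 0.05 at 24 h (adjusted p = 0.0134 and 0.0017) and by 0.32 ± 0.05 and 0.23 ± 0.05 at 48 h (6.42e-06 and 0.000737). Its arrays did not overlap with vehicle in any of them. Quantile normalisation ended the 25 mM call of Slc25a39 at 24 h (0.097, 0.139), as did leaving out vehicle replicate 1 (0.145, 0.054), in a range of 0.00985 to 0.139. Its second probe set, with differences of 0.19 to 0.31, was not called.

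The mitoferrins, which import iron, differed in sign with 25 mM at 48 h. Slc25a37 rose by 0.48 ± 0.12 (adjusted p = 0.00585), and Slc25a28 fell by 0.32 ± 0.12 (0.0477). The Slc25a28 call was lost in 11 of 17 alternatives (differences -0.39 to -0.23, adjusted p 0.0231 to 0.175). The single arrays whose removal ended it were 25 mM replicates 2 (-0.296, 0.0982), 3 (-0.339, 0.0643), 4 (-0.279, 0.125) and 5 (-0.332, 0.0669) and vehicle replicates 1 (-0.227, 0.175), 4 (-0.337, 0.066) and 5 (-0.306, 0.0948). Neither was called with 100 mM at 48 h, at 0.19 ± 0.12 for Slc25a37 and -0.21 ± 0.12 for Slc25a28.

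None of the 4 tested carriers with no substrate assigned here, Slc25a45, Slc25a46, Slc25a51l1 and Slc25a53, was called in any comparison with vehicle. Over the 21 carriers called in none, the differences ran from -0.61 to 0.26 and from -0.85 to 0.26 at 24 h and from -0.37 to 0.51 and from -0.33 to 0.31 at 48 h. Ucp3 gave the lowest value at both doses at 24 h.

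**Figure D4:**
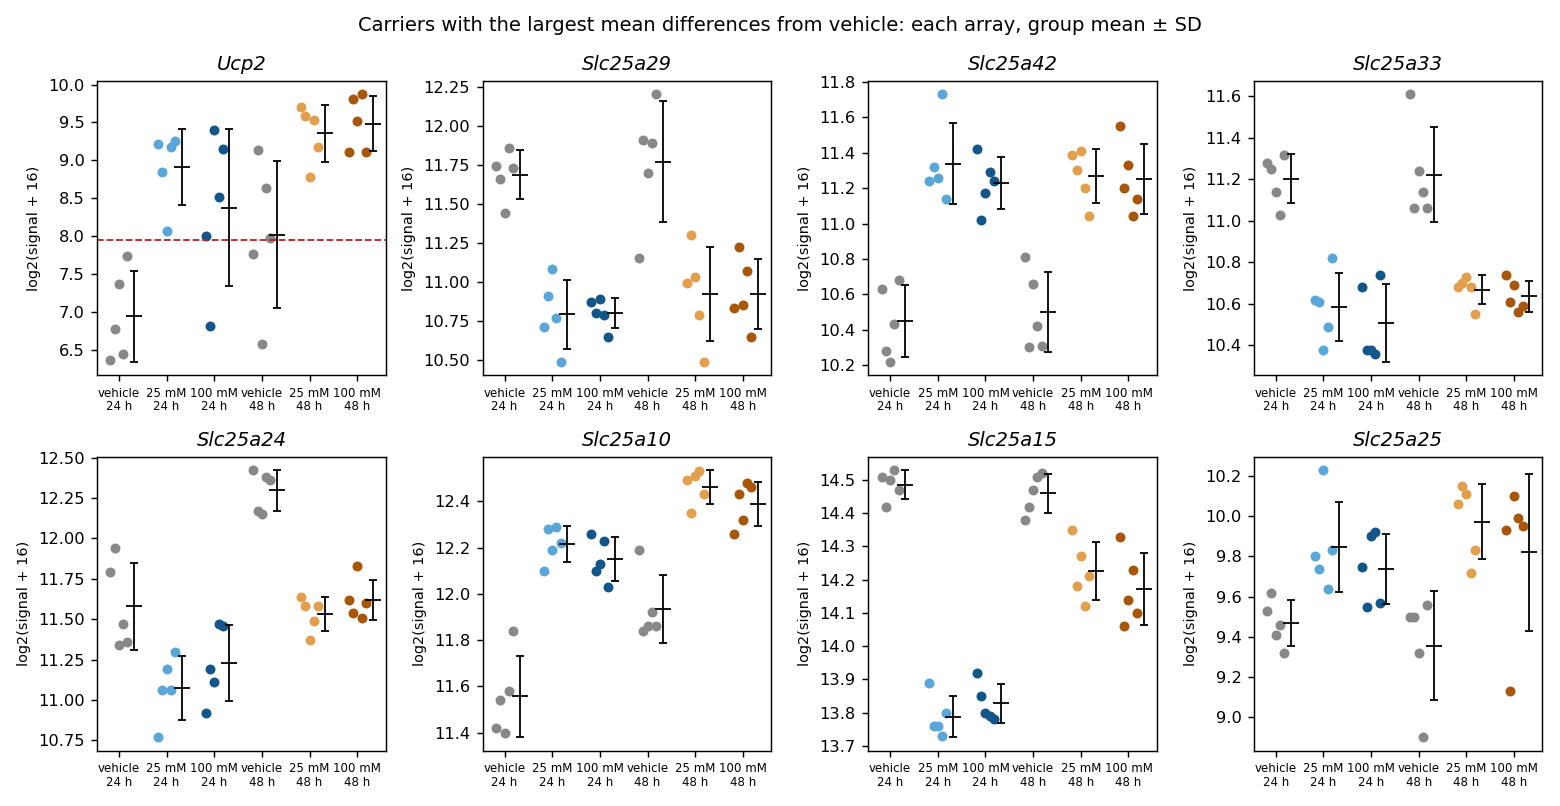
Level on the log2(signal + 16) scale of the 8 carriers with the largest mean difference from vehicle among those called, chosen for that size, with a point for each array and the group mean ± SD beside it (5 arrays a group); each panel has its own y axis, and the dashed line for Ucp2 is the dimmest mean level tested. Slc25a42 and Slc25a10 lie above vehicle and Slc25a33 and Slc25a15 below it on every DINP array, whereas Ucp2 overlaps with vehicle in 3 of the 4 comparisons.

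The higher dose did not differ detectably from the lower. With 100 mM against 25 mM, 0 of 37 carriers were called at either time in limma's test, where 0.00943% of all genes were called at each time. At an unadjusted p under 0.05 there were 2 carriers at 24 h and 1 at 48 h. The share of all genes at that threshold is not given here, so these counts are not read as a result. The 95% intervals of the difference between doses were -1.35 to 0.28 for Ucp2, -0.35 to 0.13 for Slc25a42, -0.29 to 0.31 for Slc25a29 and -0.06 to 0.14 for Slc25a15 at 24 h. At 48 h the lowest adjusted p, 0.595, was that of Slc25a37, whose mean was 0.29 lower with 100 mM (95% interval -0.54 to -0.03).

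Between the vehicle groups at 48 h and 24 h, 8 of 37 carriers were called, 6 higher and 2 lower at 48 h. That is 21.6%, where 17.4% of all genes were called, 9.49% higher and 7.92% lower. Longer culture and longer time in 1% DMSO cannot be told apart here. Beside Slc25a4, those higher at 48 h were Slc25a24, by 0.72 ± 0.11 (adjusted p = 3.28e-05), Slc25a1, by 0.49 ± 0.08 (7.67e-05), Slc25a10, by 0.38 ± 0.08 (0.000608), Slc25a30, by 0.33 ± 0.09 (0.0142), and Slc25a39, by 0.30 ± 0.05 (4.3e-05). Slc25a37 fell by 0.38 ± 0.12 (0.039) and Slc25a46, an outer membrane member, by 0.30 ± 0.07 (0.00337). Slc25a24 thus rose with time in vehicle and fell with DINP, while the brightest probe sets of Slc25a10 and Slc25a39 rose with both. The second probe sets of Slc25a10 and Slc25a39 were called neither with time in vehicle nor with DINP.

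Of these calls with time, that of Slc25a30 was lost without vehicle replicate 5 at 48 h (0.281, adjusted p = 0.0588; range 0.00556 to 0.0588) and when only the vehicle groups were fitted (0.332, 0.0549). That of Slc25a37 was lost in 11 of 17 alternatives (differences -0.44 to -0.32, adjusted p 0.0183 to 0.11). The single arrays that ended it were vehicle replicates 1 (-0.382, 0.0575), 2 (-0.355, 0.0807), 3 (-0.375, 0.0666) and 4 (-0.330, 0.109) at 24 h and 1 (-0.348, 0.0924), 2 (-0.320, 0.11) and 5 (-0.337, 0.105) at 48 h.

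Other transporters and partner enzymes give the setting in which the carriers moved. Of 20 listed transporters and carrier-like proteins outside the carrier set as defined by symbol, 15 were tested. At 24 h, 2 rose and 1 fell with 25 mM, and 2 rose and 2 fell with 100 mM. At 48 h, 3 rose and 1 fell with 25 mM, and 2 rose and 2 fell with 100 mM. These are 20%, 26.7%, 26.7% and 26.7% of the list, against 15.7%, 14.6%, 21.9% and 17.9% of all genes. Values below follow that order of the 4 comparisons. Mpc2, a subunit of the pyruvate carrier, rose by 0.59 ± 0.06, 0.54 ± 0.06, 0.52 ± 0.06 and 0.41 ± 0.06 (adjusted p = 4.08e-09, 2.93e-08, 5.64e-08 and 5.75e-06). Sfxn1, a serine transporter, fell by 0.47 ± 0.07, 0.52 ± 0.07, 0.60 ± 0.07 and 0.62 ± 0.07, with adjusted p of at most 2.52e-06. Mtch2, an insertase of the outer membrane, rose by 0.14 to 0.20.

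Carrier precursors reach the inner membrane with the small TIM chaperones. Of the 16 tested genes for outer membrane channels and carrier import, 5 and 6 rose at 24 h and 3 and 3 at 48 h, and none fell. These are 31.2% and 37.5% of the list at 24 h. Of all genes, 7.87% and 7.54% were called higher there, and 15.7% and 14.6% in either direction. At 48 h they are 18.8% of the list at both doses. Of all genes, 9.78% and 8.69% were called higher at that time, and 21.9% and 17.9% in either direction. Timm10b rose by 0.46, 0.51, 0.47 and 0.48 (SE 0.08), Timm13 by 0.33, 0.37, 0.32 and 0.34 (SE 0.07) and Timm10 by 0.35, 0.35, 0.27 and 0.26 (SE 0.07). Timm29, a subunit of the carrier translocase, rose at 24 h, by 0.32 ± 0.07 and 0.38 ± 0.07, and its differences at 48 h were 0.16 and 0.06.

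Of the 18 tested enzymes that make or use carrier substrates, 6 rose and 2 fell at each dose at 24 h, 8 rose and 2 fell with 25 mM at 48 h and 9 rose and 2 fell with 100 mM. These are 44.4%, 44.4%, 55.6% and 61.1% of the list, against 15.7%, 14.6%, 21.9% and 17.9% of all genes. Both enzymes of the glycerol phosphate shuttle rose, the cytosolic Gpd1 by 1.39, 1.26, 1.19 and 1.10 (SE 0.09) and the mitochondrial Gpd2 by 1.54, 1.17, 1.34 and 1.17 (SE 0.11). Acly, which splits the citrate that Slc25a1 exports, fell by 0.57, 0.45, 0.73 and 0.56 (SE 0.10). Around the ornithine carrier Slc25a15, ornithine aminotransferase (Oat) rose by 0.41, 0.37, 0.55 and 0.61 (SE 0.08).

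Slc25a20, the carnitine/acylcarnitine carrier left out of the set by its definition, rose by 1.04, 0.91, 1.01 and 0.93 (SE 0.05), with adjusted p of at most 4.51e-15. Ucp1, the uncoupling protein of brown fat, was too dim to test, with group means of 6.42 to 7.41.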

How the data were processed

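Rat hepatocyte RNA was measured on 30 one-colour Affymetrix arrays, 6 groups of 5. The deposited values are MAS5 signal, a linear intensity for each probe set, per the submitters' processing notes; neither its version nor a scaling target was given in the sources used here. The mean signal after trimming 2% at each end was 1500.65 to 1500.76 on all arrays, so a scaling step precedes the deposited intensity values. No 2 arrays held identical values.

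From these, log2(signal + 16) was computed, 57 control probe sets were dropped, and the 18625 of 31042 probe sets whose mean over the 30 arrays reached the 40th percentile of all means were tested. Adding 16 before log2 understates changes of dim probe sets. One linear model with a mean for each group was fitted with limma 3.58.1 (R 4.3.3; moderated test with a mean-variance trend, two-sided, 24 residual degrees of freedom), and p-values were adjusted by Benjamini-Hochberg over all tested probe sets in each comparison, with a threshold of 0.05. A gene stands for its brightest tested probe set; 11 carrier genes had more than 1.

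Symbols came from the platform annotation, with 20826 probe sets having 1 symbol, 436 several and 9780 none, and 20758 were matched to current symbols through Entrez identifiers. The members, roles and partner lists were chosen with earlier results of these data known. Named carriers were the 8 with the largest mean difference among those called, every other called carrier and a fixed list of 13, and at most 4 called partners a list. Alternatives were other constants (1 and 64), no filter, quantile normalisation, median centring, the round of array numbers as a block, only the compared groups, and each array left out. The number of arrays limits the precision.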

Additional observations from a re-analysis of the deposited data

Results flagged for a closer look

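On 96 groups of 5 arrays of the 16 carriers called at least once, 3 arrays stood apart from the other 4 of their group by Dixon's criterion, which chance meets in about 1 of 20 groups. Slc25a10 was at 12.19 on the log2 scale on vehicle replicate 1 at 48 h, against 11.84 to 11.92 on the others. That array also had the largest share of outlying probe sets. Slc25a25 was at 9.13 on 100 mM replicate 2 at 48 h, against 9.93 to 10.10. Slc25a33 was at 10.55 on 25 mM replicate 5 at 48 h, against 10.68 to 10.73.

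The effect of DINP differed between times for Slc25a15, by a test of the difference itself. It was 0.46 ± 0.07 (SE) nearer to 0 at 48 h with 25 mM (limma, adjusted p = 0.000943) and 0.37 ± 0.07 with 100 mM (0.0186) for the brightest probe set. For a second probe set it was 0.56 ± 0.11 with 25 mM (0.0081). Both doses are compared with the same vehicle arrays.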

How the results depend on the processing

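Among 47 called differences from vehicle of the named carriers, 32 were called under every alternative run and 15 lost the call under at least 1; no called difference changed sign. Of all differences from vehicle of the named carriers under an alternative, 1367 kept their side of the threshold, 55 lost a call and 6 gained one. Calls with time and for the difference of effects between times are not in these counts. Median centring left 0 carriers with an effect called different between times, at 25 mM and at 100 mM, where the main setting had 1 each; the cause was not tested. The counts of called carriers in the other comparisons stayed within a factor of 1.5. Leaving out single arrays gave 9 to 13 carriers with 25 mM and 8 to 10 with 100 mM at 24 h, 12 to 15 and 9 to 12 at 48 h, 0 to 0 between doses at both times, 6 to 9 between vehicle times, and 1 to 1 and 0 to 1 for the difference of effects at 25 mM and 100 mM. No paired analysis was possible because the labels give no replicate numbers and do not say that wells of different groups belong together. The array numbers run through the 6 groups in 5 rounds, and with that round as a block 12, 10, 15 and 11 carriers were called against vehicle. Ucp2, Slc25a53 and Slc25a35 lie near background in at least 1 group, which limits the size of their differences: with a constant of 1 in place of 16 Ucp2 differed by 2.126, 1.553, 1.409 and 1.539, and with 64 by 1.620, 1.171, 1.160 and 1.278.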
